A study of Mus musculus with 2 samples.

Results

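The 9 let-7 family genes studied here lie apart from the clusters that join a let-7 gene to a mir-99/100 or mir-125 gene. They were taken by name: Mirlet7b and Mirlet7c-2, Mirlet7a-1, Mirlet7f-1 and Mirlet7d, Mirlet7f-2 and Mir98, and the single genes Mirlet7g and Mirlet7i. These 9 genes at 5 loci were all found among the 2202 microRNA genes counted. MicroRNA sequencing was done on hippocampus of female B6CASTF1/J mice, the hybrids of C57BL/6J and CAST/EiJ, at 10 days of age, with no treatment named. The study has 1 group of 2 biological replicates, and each label lists 3 females of its own, so a value stands for pooled tissue of several animals. RNA below 30 nt was sequenced, with 5479267 sense counts on microRNA genes in replicate 1 and 3563226 in replicate 2. Because there is no second condition, levels were compared within and between loci and between the 2 libraries. Of 12 microRNA genes taken as markers of brain tissue, 10 were detected, with summed levels of 27073 and 29692 counts per 1000000, while 7 markers of liver, muscle, heart and pancreas summed to 41.1 and 37.9. Of these 7 only Mir122 was detected, at 34.7 and 34.2. The numbered copies of Mir133a and Mir1a, 4 genes in all, had no count, and those of Mir124a in brain reached at most 5.61 on this scale. Reads that match several copies are outside the gene counts, so these low values do not show absence.

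let-7 microRNAs are cut from hairpin precursors, first by Drosha in the nucleus and then by Dicer in the cytoplasm. The strand from the 5′ side of the hairpin, the 5p arm, is the main product, and its bases 2 to 8, the seed, pair with target messenger RNAs such as those of Hmga2, Ras genes and Lin28 itself. In stem cells and early progenitors the RNA-binding proteins LIN28A and LIN28B bind let-7 precursors and block their processing, and mature let-7 accumulates as brain cells stop dividing and differentiate. In human cells, most let-7 precursors need an added 3′ uridine for efficient cutting by Dicer, and those of let-7a-2, let-7c and let-7e do not.

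The 9 genes hold 8 different mature 5p sequences, since Mirlet7f-1 and Mirlet7f-2 encode the same one. These sequences are shown because reads are told apart only by the bases in which the family members differ. They are the RefSeq entries of build GRCm38.p6, 5′ to 3′, with the seed in capitals.
let-7b-5p: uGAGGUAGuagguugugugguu
let-7i-5p: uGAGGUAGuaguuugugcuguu
let-7g-5p: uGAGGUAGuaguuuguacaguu
let-7d-5p: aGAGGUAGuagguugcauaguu
let-7c-5p: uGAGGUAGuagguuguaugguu
miR-98-5p: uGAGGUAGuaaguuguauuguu
let-7f-5p: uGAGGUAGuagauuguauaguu
let-7a-5p: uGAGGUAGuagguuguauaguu

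All 8 sequences are 22 nt long and have the same seed. They vary at 7 positions, counted from 1 at the 5′ end: position 1 and positions 11, 12, 16, 17, 18 and 19. Relative to let-7a-5p, let-7c-5p has the change A19G and let-7f-5p the change G12A. let-7b-5p has A17G and A19G, let-7d-5p has U1A and U16C, let-7g-5p has G12U and U18C, and miR-98-5p has G11A and A19U. let-7i-5p is the farthest from let-7a-5p, with G12U, A17G, U18C and A19U. Of the 28 pairs that the 8 sequences form, 3 differ at only 1 base, and the most distant pair, let-7d-5p and let-7i-5p, differs at 6.

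Among 1005 RefSeq hairpins, 5 of the 9 genes have a 5p sequence of their own, Mirlet7b, Mirlet7i, Mirlet7g, Mirlet7d and Mir98. The 5p sequence of each of the other 4 genes also lies in a second hairpin. Mirlet7c-2 shares it with Mirlet7c-1 and Mirlet7a-1 with Mirlet7a-2, both outside these 5 loci, and Mirlet7f-1 and Mirlet7f-2 share theirs with each other. Mirlet7a-1 and Mirlet7c-2 also have the same 3p sequence, from the other side of the hairpin, so neither of them has an annotated mature arm of its own. The 3p arms of Mirlet7f-1 and Mirlet7f-2 are their own. The hairpins of Mirlet7a-1, Mirlet7c-2 and Mirlet7f-1 are shown with every arm that lies in a second hairpin in capitals, next to that of Mirlet7b, which has no such arm.
Mirlet7a-1: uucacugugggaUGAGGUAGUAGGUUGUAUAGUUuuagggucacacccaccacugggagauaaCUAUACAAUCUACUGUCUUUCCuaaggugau
Mirlet7c-2: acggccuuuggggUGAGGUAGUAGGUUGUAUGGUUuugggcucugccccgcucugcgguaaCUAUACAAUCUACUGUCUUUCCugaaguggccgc
Mirlet7f-1: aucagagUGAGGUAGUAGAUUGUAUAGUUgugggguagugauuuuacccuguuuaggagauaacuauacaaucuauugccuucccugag
Mirlet7b: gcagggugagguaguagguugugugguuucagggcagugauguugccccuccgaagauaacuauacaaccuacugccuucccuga

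The longest stretch that Mirlet7a-1 and Mirlet7c-2 have in common with any other hairpin is 26 nt, and they have it in common with each other. For Mirlet7f-1 and Mirlet7f-2 it is 22 nt. For Mirlet7b, Mirlet7g and Mirlet7i it is 19 nt, for Mir98 17 nt and for Mirlet7d 14 nt. The deposited files put reads that match several places in a row of their own, outside the gene counts, and this row held 43.2% of all reads in replicate 1 and 39.3% in replicate 2. How much of it is let-7 was not tested, so the levels of the 4 genes with a second copy cover only reads placed on one gene.

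Together the 9 genes took up a large part of the reads placed on microRNA genes. Their share was 24.9% in replicate 1 (exact Clopper-Pearson interval at 95%, 24.90% to 24.97%) and 23.1% in replicate 2 (23.08% to 23.17%), or 24.0% ± 1.28 (SD, n = 2). The intervals cover counting error only, since the reads carry no molecular identifiers and may repeat 1 molecule, and the 2 libraries lay far outside each other's interval. The total of counts leaves out reads that match several places, and of all reads the 9 genes held 9.07% and 8.69% in replicates 1 and 2. In tissue, fewer cells that express a microRNA and less of it per cell cannot be told apart. The share of placed reads came almost wholly from the genes with a 5p sequence of their own. Those 5 held 24.4% and 22.6% of the counts, and the 4 genes with a second copy held 0.492% and 0.483%. The counts of those 4 leave out reads that match both copies.

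Between loci, the Mirlet7b/c-2 locus held the most, at 10.7% and 10.2% of the counts in replicates 1 and 2, or 10.5% ± 0.373 (SD, n = 2). Mirlet7i followed at 6.61% and 5.65% (6.13% ± 0.676), Mirlet7g at 5.09% and 4.85% (4.97% ± 0.171), and the Mirlet7a-1/f-1/d locus at 2.13% and 2.06% (2.10% ± 0.0523). The X-linked Mirlet7f-2/Mir98 locus was the lowest, at 0.387% and 0.374% (0.381% ± 0.00904). For reads placed on a single gene, this order was the same in both libraries and no 2 loci overlapped. The Mirlet7b/c-2, Mirlet7a-1/f-1/d and Mirlet7f-2/Mir98 loci hold genes with a second copy, and their totals lack the reads shared between copies. Whether counting such reads would change the order was not tested. Among the counts of the 9 genes alone, the Mirlet7b/c-2 locus held 43.5% ± 0.770 and the Mirlet7f-2/Mir98 locus 1.59% ± 0.0469.

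Single genes spanned a range of 1521-fold in replicate 1 and 1585-fold in replicate 2 from the highest to the lowest. Levels below are sense counts scaled to 1000000 per library over all microRNA genes (CPM). They are not divided by length, since the mature products are alike in length. Levels and ranks cover only reads placed on a single gene. MicroRNAs with several copies lack the reads shared between copies, so ranks among all genes do not rank mature products.

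Mirlet7b (ENSMUSG00000065564.1, chromosome 15, 85707319 to 85707403, plus strand; coordinates here and below are those of mm10 and GENCODE M21) had levels of 104103 and 98766 CPM in replicates 1 and 2. By reads placed on a single gene it was the highest of all microRNA genes in both libraries, and it held 42.2% ± 0.681 of the counts of the 9 genes (SD, n = 2). let-7b is known in the mouse brain to slow the division of neural stem cells. Its host is Lncppara, a long non-coding gene, and it is exonic there.

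Mirlet7i (ENSMUSG00000065406.3, chromosome 10, 122985640 to 122985724, minus strand) stood at 66062 and 56496 CPM in replicates 1 and 2, the widest gap in CPM among the 9. By placed reads it held rank 2 among all genes in replicate 1 and rank 5 in replicate 2. It overlaps the transcribed pseudogene D630033A02Rik, where it is exonic in 1 transcript and intronic in the other. By mean level the nearest gene below was Mir139, a microRNA in Pde2a, at 52203 and 66679 CPM, whose library values overlapped those of Mirlet7i, so the order of the pair was not resolved.

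Mirlet7g (ENSMUSG00000065440.1, chromosome 9, 106178840 to 106178927, plus strand) stood at 50942 and 48523 CPM. Both values lay below those of Mirlet7i. It lies in an intron of all 5 annotated transcripts of Wdr82 that span it; Wdr82 encodes a subunit of the SET1 histone methyltransferase complexes. Its neighbours by mean level, Mir99a at 48217 and 58809 CPM and Mir127 at 39361 and 59357 CPM, both overlapped it.

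Mirlet7d (ENSMUSG00000065453.1, chromosome 13, 48536012 to 48536114, minus strand) stood at 20956 and 20273 CPM and held rank 11 by placed reads in both libraries. Its mature 5p strand is the only one of the 8 that starts with A. The gene is in an exon of the long intergenic non-coding gene 6720427I07Rik together with Mirlet7f-1 and Mirlet7a-1. Its values overlapped those of Mir149 above it, at 19752 and 30677 CPM, and of Mir433 below it, at 17177 and 20723 CPM.

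Below these 4 genes, which held 97.0% ± 0.126 of the counts of the 9 (SD, n = 2), levels dropped. Mirlet7c-2 (ENSMUSG00000065608.1, chromosome 15, 85706603 to 85706697, plus strand), exonic in Lncppara like its neighbour, stood at 3067 and 3133 CPM in replicates 1 and 2. Mir98 (ENSMUSG00000065536.2, chromosome X, 151913214 to 151913321, plus strand) stood at 2394 and 2364 CPM, and Mirlet7f-2 (ENSMUSG00000065602.1, chromosome X, 151912346 to 151912428, plus strand) at 1477 and 1380 CPM. The last 2 lie in an intron of Huwe1, which encodes a ubiquitin ligase. Around Mir98 the ranking is dense: Mir598, Mir128-2, Mir423 and Mir760, the 2 genes on either side of it by mean level, all overlapped it.

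The lowest members were Mirlet7a-1 (ENSMUSG00000065421.3, chromosome 13, 48538179 to 48538272, minus strand), at 306 and 255 CPM, and Mirlet7f-1 (ENSMUSG00000105621.1, chromosome 13, 48537829 to 48537917, minus strand), at 68.4 and 62.3 CPM. These rest on 1677 and 908 counts for Mirlet7a-1 and on 375 and 222 counts for Mirlet7f-1. All 9 genes had at least 10 counts in each library, the minimum for calling a gene detected. The order of the 9 was the same in both libraries, and none of the 8 neighbouring pairs in that order overlapped.

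**Figure D1:**
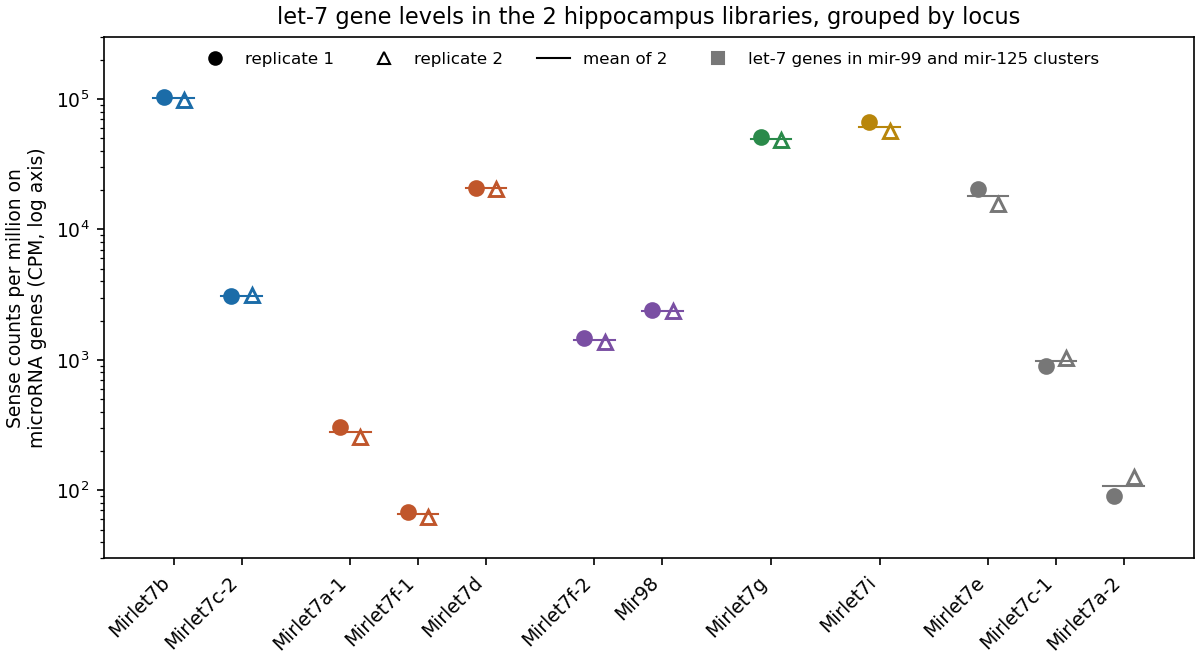
CPM on a log axis of the 9 let-7 genes, coloured by locus, and of the 3 let-7 genes of the mir-99 and mir-125 clusters in grey; filled circles are replicate 1, open triangles replicate 2 and lines the mean of 2. Mirlet7b stands highest at 104103 and 98766 CPM and Mirlet7f-1 lowest at 68.4 and 62.3 CPM, and the 2 libraries lie close together for each gene.

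The number of hairpins that hold a gene's 5p sequence separated the 9 genes almost completely by level in placed reads. Reads that match both copies are in no gene count, so the counts of the 4 genes with a second copy leave them out by rule. The separation therefore does not rank the mature products. The 5 genes with their own 5p sequence ran from 2379 to 101435 mean CPM and the 4 genes with a second copy from 65.4 to 3100 mean CPM. Only Mirlet7c-2 and Mir98 crossed, with Mirlet7c-2 higher in both libraries. The part of placement on several genes in this difference was not tested.

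**Figure D2:**
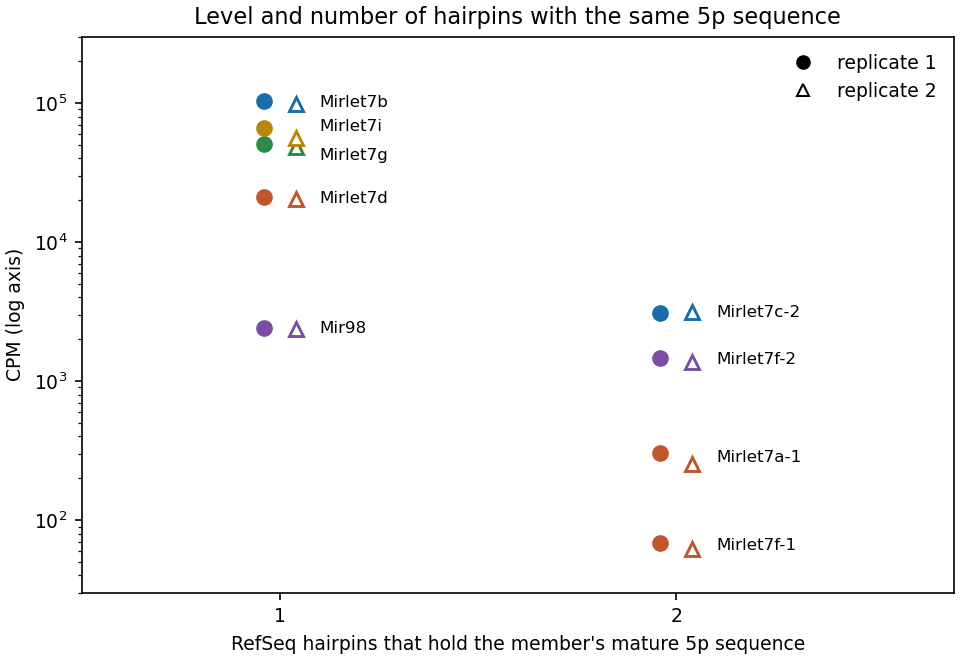
CPM on a log axis against the number of RefSeq hairpins that hold the mature 5p sequence of each of the 9 genes; filled circles are replicate 1 and open triangles replicate 2, coloured by locus. Mirlet7b, Mirlet7i, Mirlet7g and Mirlet7d, each with a 5p sequence of its own, lie at or above 20273 CPM, and the 4 genes whose 5p sequence lies in 2 hairpins lie at or below 3133 CPM. Mir98, which also has a 5p sequence of its own, lies at 2394 and 2364 CPM, below Mirlet7c-2 at 3067 and 3133 CPM. All levels leave out reads that match several genes.

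Within the loci, genes close together on one strand differed widely in reads placed on a single gene. The lower genes of each locus are those with a second copy, so their counts lack the reads shared between copies. How far this sets the ratios and locus shares below was not tested. Mirlet7c-2 lies 621 nt before Mirlet7b, and Mirlet7b had 33.9 times the counts of Mirlet7c-2 in replicate 1 and 31.5 times in replicate 2. Mirlet7b held 97.0% ± 0.150 of the counts of this locus (SD, n = 2).

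On chromosome 13 the direction of transcription runs from Mirlet7a-1 over Mirlet7f-1, 261 nt further on, to Mirlet7d, another 1714 nt on. Mirlet7d, the last of the 3, held 98.2% and 98.5% of the placed reads of the locus in replicates 1 and 2. These shares leave out the reads that Mirlet7a-1 and Mirlet7f-1 have in common with other hairpins, so they do not rank the mature products. Mirlet7d had 68.5 and 79.6 times the counts of Mirlet7a-1 and 306 and 325 times those of Mirlet7f-1. Mirlet7a-1 had 4.47 and 4.09 times the counts of Mirlet7f-1.

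On the X chromosome the pair was closer in level. Mir98, 785 nt after Mirlet7f-2, had 1.62 and 1.71 times its counts and held 62.5% ± 0.920 of the locus (SD, n = 2). In each of the 3 loci the gene highest in placed reads was the last in the direction of transcription. It was also a gene with a 5p sequence of its own.

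**Figure D3:**
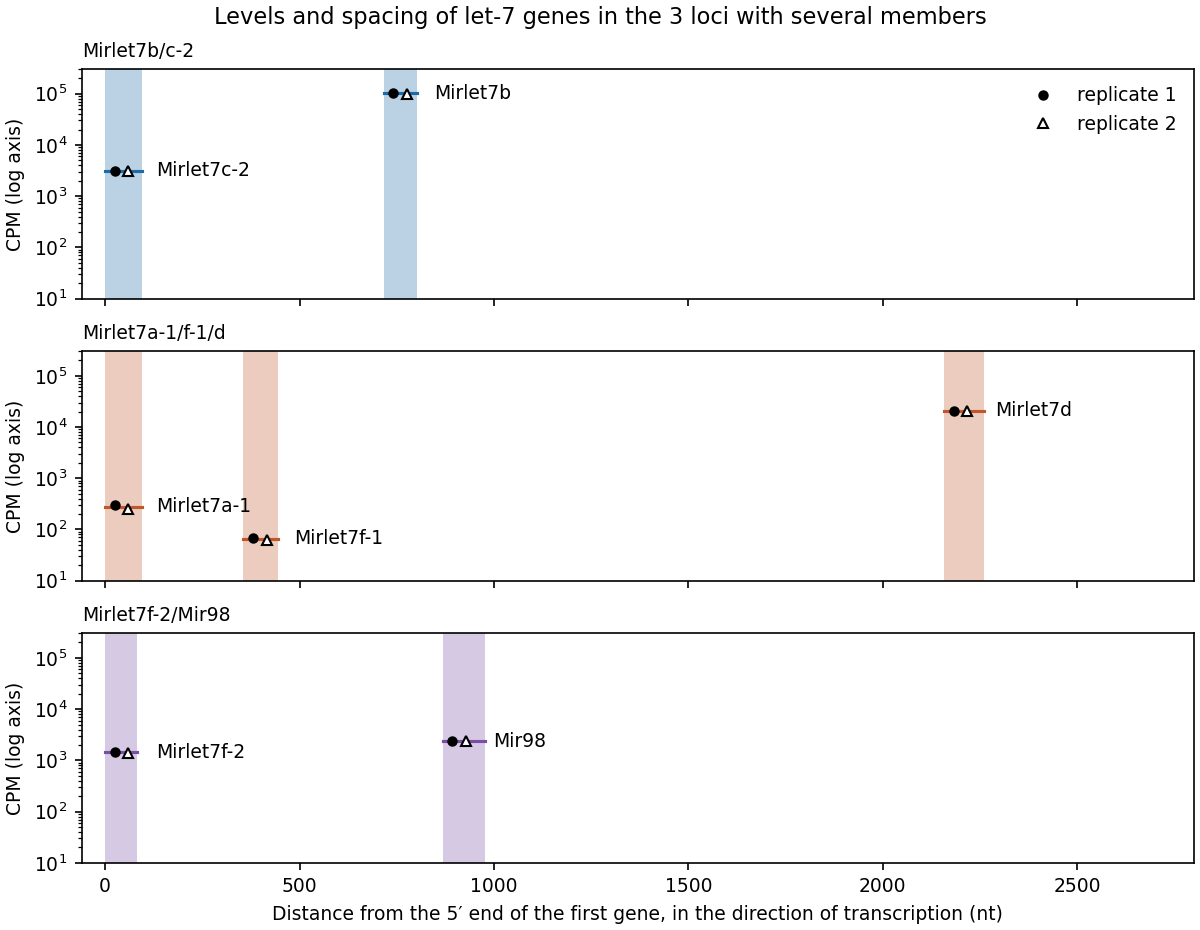
CPM on a log axis of the genes in the 3 loci with several members, placed to scale by distance in nt from the 5′ end of the first gene in the direction of transcription; shaded bands are the annotated genes, coloured lines the mean of 2 libraries, filled circles replicate 1 and open triangles replicate 2. The last gene of each locus, Mirlet7b, Mirlet7d or Mir98, is the highest in it by reads placed on a single gene.

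These within-locus ratios were nearly the same in the 2 libraries. A two-sided Fisher exact test of the counts of 2 genes in 2 libraries, adjusted by Benjamini-Hochberg over all 398 pairs of detected microRNA genes up to 10 kb apart on a strand, called 71.1% of those pairs. It called 3 of the 5 pairs within the let-7 loci, a share that is not above this background. The called pairs were Mirlet7b with Mirlet7c-2 (Fisher exact test, adjusted p = 6.11e-09), Mirlet7d with Mirlet7a-1 (adjusted p = 0.000528) and Mir98 with Mirlet7f-2 (adjusted p = 0.0229). Mirlet7d with Mirlet7f-1 and Mirlet7a-1 with Mirlet7f-1 gave adjusted p = 0.553 and 0.398 by the same exact test, on the smaller counts of Mirlet7f-1. The log2 ratio of the 5 pairs moved between the libraries by 0.08 to 0.22, with a median of 0.11, next to a median of 0.41 over the 398 pairs. Ratios between genes of different let-7 loci moved by 0.01 to 0.30 over 31 pairs, with a median of 0.09, so pairs within a locus were not closer to constant than pairs from different loci. The 36 pairs share genes and libraries and were given no joint test. The Fisher p-values measure counting error only, not spread among replicates.

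Between the libraries, the 9 genes leaned one way. After TMM scaling, which matches the bulk of the genes between libraries, the log2 ratio of replicate 1 to replicate 2 was above 0 for all 9, from 0.03 for Mirlet7c-2 to 0.33 for Mirlet7a-1; with scaling by library totals, Mirlet7c-2 turned to -0.03. A two-sided exact binomial test, adjusted over the 429 detected genes, called 61.3% of those genes, 32.6% as higher in replicate 1 and 28.7% as higher in replicate 2. Of the 9 genes, 7 were called, all higher in replicate 1. Mirlet7i had a log2 ratio of 0.29, Mirlet7f-2 of 0.16 (exact binomial test, adjusted p = 2.34e-09), Mirlet7b of 0.14, Mirlet7g of 0.13 (adjusted p = 2.32e-195), Mirlet7d of 0.11 (adjusted p = 1.18e-56) and Mir98 of 0.08 (adjusted p = 0.000161). For Mirlet7b and Mirlet7i the p was too small to be held as a number. The p-values of this test measure counting error only, not spread among replicates. Mirlet7a-1 had adjusted p = 9.29e-08 by this exact test, and Mirlet7c-2 and Mirlet7f-1 did not pass, at adjusted p = 0.123 and 0.164.

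These differences were small against those of other genes. The median absolute log2 ratio was 0.14 over the 9 genes and 0.33 over the 429 detected genes, and no member reached 2-fold, a size that 11.4% of detected genes passed together with the test. Among genes of at least 1000 CPM the medians were 0.13 for 7 members and 0.25 for 115 genes. The test compares 2 libraries of the same condition, and with deep counts it calls differences of a few percent. Of those 115 genes, 109 (94.8%) were called, and of the 7 members among them 6, a share that is not above this background.

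**Figure D4:**
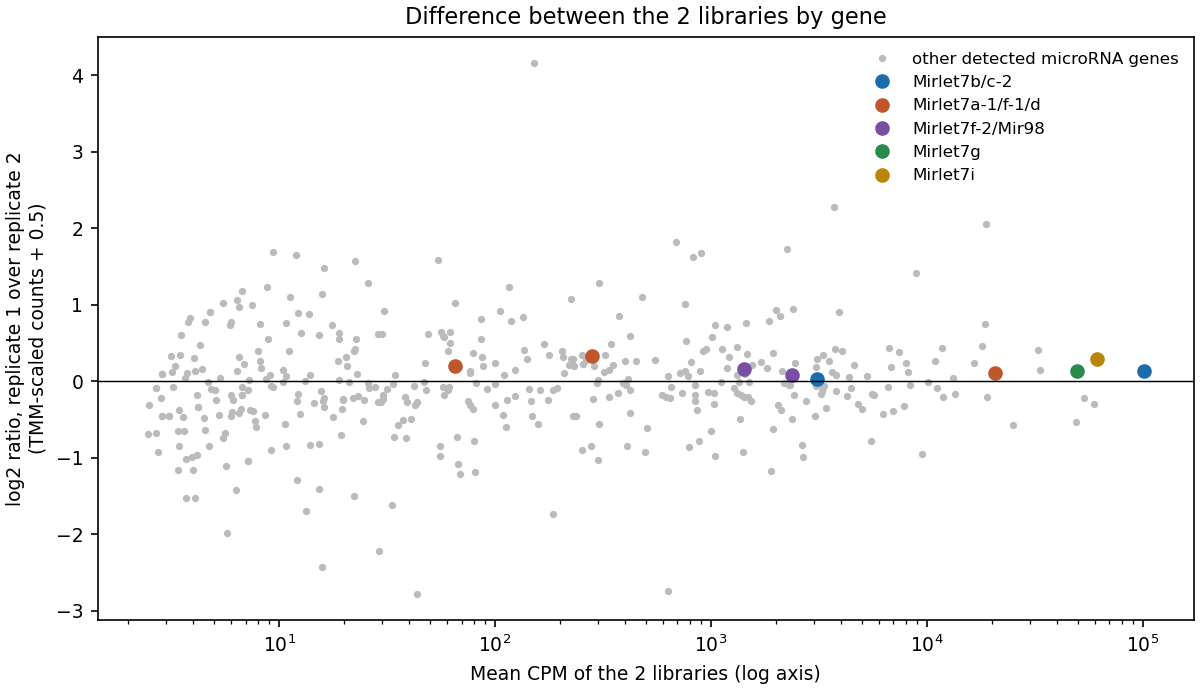
log2 ratio of replicate 1 to replicate 2 against mean CPM on a log axis for the 429 detected microRNA genes, with the 9 let-7 genes coloured by locus and the others in grey; each point is 1 gene. The let-7 genes lie between 0.03 and 0.33, above the line at 0.

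The 3 let-7 genes of the mir-99 and mir-125 clusters serve as the nearest comparison. The 9 genes held 92.0% and 93.2% of the counts of these 12 let-7 genes in replicates 1 and 2, and the 3 others held the rest. Mirlet7e, whose 5p sequence is its own, stood at 20582 and 15636 CPM and overlapped Mirlet7d. Mirlet7c-1, which has the same 5p sequence as Mirlet7c-2, stood at 904 and 1039 CPM against 3067 and 3133 CPM for Mirlet7c-2. Mirlet7a-2, with the 5p sequence of Mirlet7a-1, stood at 90.0 and 127 CPM against 306 and 255 CPM for Mirlet7a-1. In both of these shared pairs the copy outside the mir-99 and mir-125 clusters had more placed reads in each library. Reads that match both copies are in neither count. Mirlet7c-1 and Mirlet7a-2 have a 3p sequence of their own, while Mirlet7c-2 and Mirlet7a-1 share theirs, so the counts compared are not of the same kind. The shares of the 12 genes are likewise limited to reads placed on a single gene.

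The 9 hairpins also differ in a short motif that LIN28 proteins are known to bind. The letters GGAG were searched on the RNA strand between the annotated 5p and 3p arms, a stretch of 26 to 36 nt in these genes. Of the 9 hairpins, 6 hold GGAG there, as do 8.07% of 644 hairpins with both arms annotated and 31.6% of the 38 whose stretch has the same range of length, the let-7 hairpins included. The stretches of the highest gene without and the highest gene with these letters are shown, with GGAG in capitals.
Mirlet7b: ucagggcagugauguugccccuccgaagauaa
Mirlet7i: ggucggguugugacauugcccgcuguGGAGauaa

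The 3 hairpins without GGAG were those of Mirlet7b, Mirlet7c-2 and Mir98, at mean levels of 101435, 3100 and 2379 CPM. The 6 with it ran from 65.4 CPM for Mirlet7f-1 to 61279 CPM for Mirlet7i, so the 2 sets overlapped in level.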

How the data were processed

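The authors deposited raw counts of reads for each microRNA gene, 1 file per library, with a column that disregards strand and 1 for each strand. The notes deposited beside the files name mm10 as build and GENCODE M21 as annotation; which aligner, counter and filters were used is not given in the sources used here. The strand with the larger total over genes was used as sense. Library sizes and tests leave out 4 rows of reads without a gene; unmapped reads were 14.2% and 18.0% of all reads in replicates 1 and 2 and reads outside microRNA genes 6.16% and 5.17%. TMM factors were 0.979 and 1.02 (edgeR 4.0.16); tests used SciPy 1.17.1, a threshold of 0.05 and a count minimum of 10 in each library, and ratios add 0.5 counts. The libraries were checked not to be copies, with a chi-square of 519.6 per gene. Tests were tried on simulated data. Members and lists were chosen with earlier results of these data known. Named genes are the 9 members, other let-7 genes and genes with the seed, rank neighbours of the leading gene of each locus, opposite-strand genes and hosts. Alternatives were scaling by DESeq2 1.42.0 size factors or totals, other minimums, pair distances, denominators and strand handling. Sequences are RefSeq's, GRCm38.p6, and for all 9 genes equal the GENCODE M21 transcript.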

Additional observations from a re-analysis of the deposited data

Results flagged for a closer look

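A signal was seen in rows and columns that the comparisons above do not use. Reads that matched several places numbered 6510824 in replicate 1 and 3723576 in replicate 2, and they are in no gene count. Gm24111, a gene annotated opposite Mirlet7f-1, had 375 and 222 counts on its opposite strand, which are the sense counts of Mirlet7f-1 in replicates 1 and 2, and 1 and 0 counts on its own strand. In the counts without regard to strand, Mirlet7f-1 and Gm24111 both had 0 counts in each library.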

How the results depend on the processing

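The share of the 9 genes, 24.0% in the main analysis, was 25.5% in counts without regard to strand, 8.88% of all reads and 15.5% with Mirlet7b left out of members and total. By locus, in the same order of settings, Mirlet7b/c-2 held 11.1%, 3.86% and 0.345%, Mirlet7a-1/f-1/d 2.22%, 0.775% and 2.33%, Mirlet7f-2/Mir98 0.405%, 0.141% and 0.424%, and Mirlet7g 5.29%, 1.84% and 5.54%. Mirlet7i held 2.26% of all reads and 6.82% without Mirlet7b. Summing counts or limiting the total to detected genes moved no share by more than 1 SD. Without the 4 genes with a shared 5p sequence, an alternative chosen after seeing the data and run for the total alone, the 9-gene share became 23.7%. With 2 libraries, leaving out either gives the value of the other, 23.1% or 24.9% for the total, which says nothing about stability. Of the 7 members called between the libraries, 0 were also at least 2-fold apart; the count was 8 with size factors of DESeq2 and 6 with library totals, where the log2 ratio of Mirlet7c-2 was -0.031 and Mir98 did not pass (adjusted p = 0.446 in the binomial test). The number of called pairs within loci was 3 under each alternative, of 3 testable pairs where counts disregard strand, since Mirlet7f-1 then has no count. No paired analysis was possible because the study has 1 group. The precision of levels is set by having 2 libraries, not by depth.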

Other observations

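RefSeq names 2 further mouse genes after let-7, and both had few counts. Mir7j, whose mature sequence let-7j is 1 base apart from let-7i-5p over the length of let-7i-5p and does not have the let-7 seed, had 128 counts in replicate 1 and 81 in replicate 2, or 23.4 and 22.7 CPM. Mirlet7i, by comparison, had 361969 and 201308 counts. Mir7k, which has the seed, had 4 and 0 counts. Mir1961, another gene with the seed, had 0 counts in both libraries. For reads with a unique place, a count of 0 was given a ceiling of 3 counts, or 0.548 and 0.842 CPM in replicates 1 and 2. This ceiling is a convention for counting error, not an absolute maximum. In all, 13 microRNA genes of the RefSeq table have an annotated mature sequence with the let-7 seed.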
